A study of Arabidopsis thaliana with 12 samples.

Results

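The jasmonate pathway was followed here through 34 of the 28496 genes in the table, listed by their AGI locus codes. They comprise 10 genes of jasmonate synthesis, 15 genes of signalling and 9 genes of turnover. RNA from *Arabidopsis thaliana* leaves was sequenced in 4 genotypes grown in short days. There were 3 samples per genotype from 3 independent experiments, and each sample held 2 leaves, from at least 2 plants. The values analysed here are 1 pooled number per gene and genotype, so they carry no spread between samples and no difference below was tested.

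The groups were wild-type Col-0, ADR1-L2 D484V (ADR1-L2 DV, here the DV line) and 2 suppressors of it. These are ADR1-L2 DV sadr1-26.6, here *sadr1-26.6*, and its counterpart ADR1-L2 DV sadr1-30.4, here *sadr1-30.4*. ADR1-L2 is a helper immune receptor, and the D484V change in its MHD motif mimics the activated receptor. All 3 mutant genotypes carry this transgene under the native *ADR1-L2* promoter in the *adr1-l2-4* mutant, so Col-0 is the only group without the transgene and with the endogenous gene intact. The suppressors also carry mutations in *SADR1*, a gene for a TIR-type immune receptor, recovered in a screen for restored growth. Each mutant genotype is 1 line. The question was how the pathway's transcripts differ in plants with an always-active immune receptor and in plants where a second mutation restores growth.

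Jasmonates are lipid hormones made from linolenic acid. Lipoxygenases, allene oxide synthase and allene oxide cyclases act in the chloroplast, OPR3 acts in the peroxisome, and JAR1 joins the product to isoleucine to give the active hormone JA-Ile. JA-Ile brings JAZ repressors to the receptor COI1 for degradation, which frees the MYC transcription factors, and *JAZ* genes are themselves among the MYC targets, so that the pathway restrains itself. CYP94 enzymes oxidise JA-Ile, JOX enzymes hydroxylate jasmonic acid, ST2A adds a sulfate to the hydroxylated form, and JMT makes the methyl ester.

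The total of pooled reads was 20148132 in Col-0, 21277026 in the DV line, 20013826 in *sadr1-26.6* and 20613029 in *sadr1-30.4*. Values were scaled between genotypes by the median of ratios over all genes, and a log2 ratio is that of scaled reads plus 1. A gene was counted as past 2-fold when its log2 ratio was at least 1 in size and its mean was at least 20 scaled reads, which 17020 genes and 29 of the 34 jasmonate genes reached. Brackets after a log2 ratio give its 95% counting interval (exact Clopper-Pearson), which covers counting error only and not differences between plants, and which takes each deposited value as a number of reads. Scaling by total reads instead put the median log2 ratio of all genes above the floor at 0.22 in the DV line against Col-0. That median was -0.26 in *sadr1-26.6* against the DV line and -0.24 in *sadr1-30.4* against the DV line. The 100 most abundant genes took 26.4% of reads there against 33.2% in Col-0. As a check of the labels, *ADR1-L2* (AT5G04720) had 1148 reads in Col-0, 8543 in the DV line, 3254 in *sadr1-26.6* and 1855 in *sadr1-30.4*. Reads of the transgene and of the endogenous gene are not separated in that value.

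In the DV line against Col-0, genes of each step lay on both sides of Col-0, with 3 of 10 synthesis genes, 8 of 13 signalling genes (11 under total-read scaling) and 5 of 6 turnover genes above it. Over all 17020 genes above the floor, 8590 were above Col-0. The median log2 ratio was -0.36 for the 10 synthesis genes, 0.21 for 13 signalling genes and 1.36 for 6 turnover genes above the floor of 20 scaled reads, beside 0.19 over the 29 genes and 0.01 over all genes. Past 2-fold higher were 7 of the 29 (*AOC3*, *JAZ1*, *JAZ10*, *CYP94C1*, *ST2A*, *JOX3* and *JOX4*), beside 6.48% of all genes above the floor. Past 2-fold lower were 4 (*AOS*, *AOC2*, *MYC4* and *JMT*), beside 6.9% of all genes. By step, 1 synthesis gene was higher and 2 were lower, 2 signalling genes were higher and 1 was lower, and 4 turnover genes were higher and 1 was lower. Of these 11 genes, 3 (*JAZ10*, *ST2A* and *JOX3*) had fewer than 20 scaled reads in Col-0. The floor is a mean over the 4 genotypes, and *JAZ10* (20.15) and *JOX3* (34.2) reached it only through the DV line, where they were highest. Their place in these counts and in the signalling and turnover medians thus depended on the DV value itself. With a floor of 100 mean scaled reads, 2 higher genes were counted (*AOC3* and *JAZ1*) and 3 lower, without *JMT*, and *JOX2* (0.57) was the 1 turnover gene left. Under total-read scaling, *AOC2* (-0.85) and *MYC4* (-0.79) were no longer past 2-fold, and the synthesis and signalling medians were -0.14 and 0.43.

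**Figure D1:**
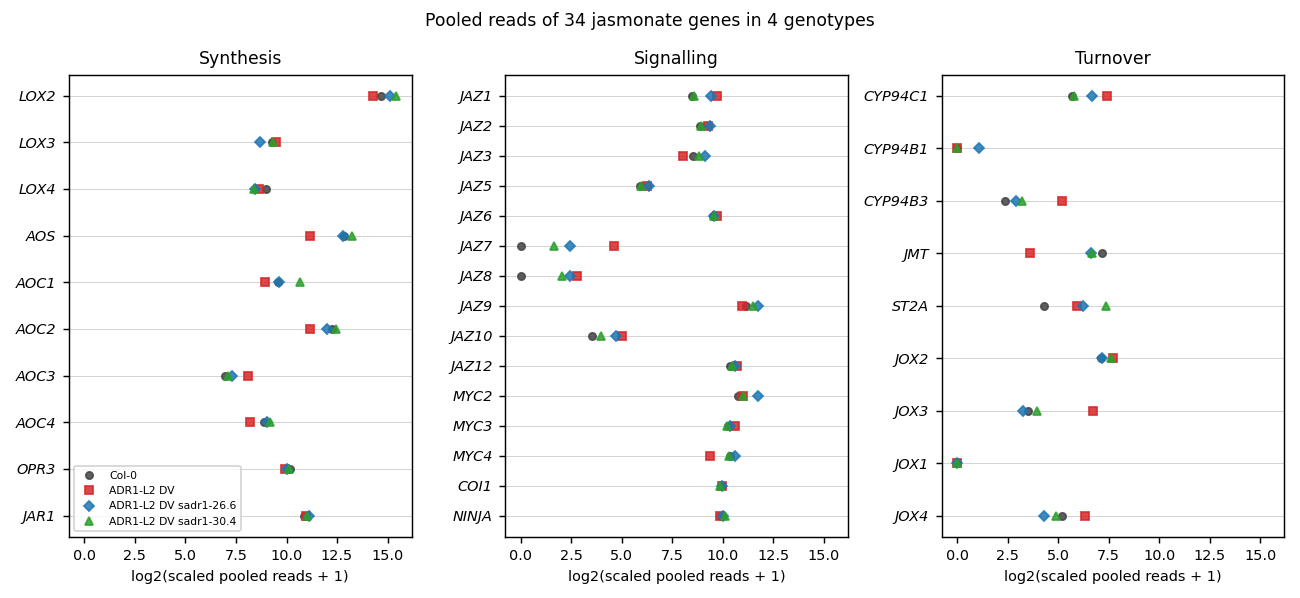
Log2 of scaled pooled reads plus 1 (x axis) for each of the 34 genes (rows), by step, with 1 symbol per genotype and no error shown. *LOX2* is the most abundant, *JOX1* lies at 0 in all 4 genotypes, and *JMT* and *JOX3* show the widest gaps between the DV line and the other genotypes among genes above the floor.

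Synthesis begins with the 13-lipoxygenases. *LOX2* (AT3G45140), the main leaf enzyme, had 24758 reads in Col-0, 23715 in the DV line, 32702 in *sadr1-26.6* and 42188 in *sadr1-30.4*. Per kilobase of transcript it was the most abundant of the 34 genes in Col-0, at 8106 scaled reads per kb. Its log2 ratio to Col-0 was -0.35 in the DV line [-0.38 to -0.33], 0.46 in *sadr1-26.6* and 0.76 in *sadr1-30.4*, so both suppressors lay above Col-0. *LOX3* (AT1G17420), with 594, 834, 379 and 617 reads in the same order of genotypes, was lowest in *sadr1-26.6* (-0.59 against Col-0). *LOX4* (AT1G72520) had 490, 467, 320 and 319 reads. It was below Col-0 in the 3 mutant genotypes, at -0.36, -0.56 and -0.63, the first of which was -0.15 under total-read scaling. The lipoxygenase genes thus differed among themselves, with *LOX2* alone above Col-0 in both suppressors by more than its counting interval.

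*AOS* (AT5G42650), the single gene for allene oxide synthase in this plant, was the synthesis gene furthest below Col-0. It had 7044 reads in Col-0, 2688 in the DV line, 6574 in *sadr1-26.6* and 9206 in *sadr1-30.4*. The level in the DV line was 3.20-fold lower than Col-0, a log2 ratio of -1.68 [-1.75 to -1.62]. In *sadr1-26.6* the ratio was -0.05 [-0.09 to 0.00], with an interval that only just included 0, and -0.09 under total-read scaling. In *sadr1-30.4* the ratio was 0.38 [0.33 to 0.42].

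The 250 bases before the annotated start of 4 genes are shown, because these lay furthest from Col-0 in the DV line among the lower (*AOS*, *JMT*) and the higher genes (*JOX3*, *JAZ7*), a choice made after their values were seen. They were read from the RefSeq genome TAIR10.1 in the direction of transcription. *AOS* is at chr5:17099596-17099845 (minus strand), *JMT* at chr1:6791920-6792169 (minus strand), *JOX3* at chr3:20769411-20769660 (minus strand) and *JAZ7* at chr2:14572780-14573029 (plus strand). Capitals mark matches on either strand to the G-box (CACGTG) or to the related T/G-box (CACGTT) and its reverse complement, both known as elements that MYC2 binds.
AOS: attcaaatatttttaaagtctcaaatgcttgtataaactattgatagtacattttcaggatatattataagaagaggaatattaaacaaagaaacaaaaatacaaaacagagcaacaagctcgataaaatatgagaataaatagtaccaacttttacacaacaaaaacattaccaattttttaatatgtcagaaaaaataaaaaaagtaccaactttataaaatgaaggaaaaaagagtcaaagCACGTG
JMT: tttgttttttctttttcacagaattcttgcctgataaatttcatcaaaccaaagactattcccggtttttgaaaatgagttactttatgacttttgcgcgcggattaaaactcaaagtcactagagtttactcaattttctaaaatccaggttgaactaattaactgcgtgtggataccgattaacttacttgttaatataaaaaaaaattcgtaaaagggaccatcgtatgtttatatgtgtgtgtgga
JOX3: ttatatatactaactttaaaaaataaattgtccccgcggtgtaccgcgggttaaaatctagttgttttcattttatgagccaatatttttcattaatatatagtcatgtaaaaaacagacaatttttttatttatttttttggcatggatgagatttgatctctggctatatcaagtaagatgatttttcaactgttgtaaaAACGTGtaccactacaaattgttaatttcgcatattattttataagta
JAZ7: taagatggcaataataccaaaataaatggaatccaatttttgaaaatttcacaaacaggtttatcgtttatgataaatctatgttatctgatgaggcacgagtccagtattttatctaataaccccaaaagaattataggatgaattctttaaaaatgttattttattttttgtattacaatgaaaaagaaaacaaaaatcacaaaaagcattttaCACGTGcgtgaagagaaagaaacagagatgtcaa
The *AOS* window ends in a G-box, the *JAZ7* window has one that begins 34 bases before the start, *JOX3* has a T/G-box that begins 48 bases before the start, and *JMT* has no match. Over the 34 genes, 6 windows held a G-box (17.6%) and 9 a T/G-box (26.5%), against 6.49% and 7.54% of the 27443 windows of protein-coding genes. By step, a G-box was in 1 of 10 synthesis, 4 of 15 signalling and 1 of 9 turnover windows. A match is a string of letters and not a measured binding site. Among the genes past 2-fold higher in the DV line, *JOX3* alone had a match, and *AOC3*, *JAZ1*, *JAZ10*, *CYP94C1*, *ST2A* and *JOX4* had none. Among those past 2-fold lower, *AOS* alone had a match, and *AOC2*, *MYC4* and *JMT* had none. *JAZ7* was below the floor, so the 4 windows shown do not stand for either list.

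The 4 allene oxide cyclases, which set the stereochemistry of the jasmonate precursor, did not move together. *AOC1* (AT3G25760), *AOC2* (AT3G25770) and *AOC3* (AT3G25780) stand in a row on chromosome 3 at 9403779 to 9405338, 9406669 to 9408071 and 9409160 to 9411090, while *AOC4* (AT1G13280) is on chromosome 1. *AOC2* had 4594 reads in Col-0, 2697 in the DV line, 3823 in *sadr1-26.6* and 5349 in *sadr1-30.4*. Its log2 ratio in the DV line was -1.06 [-1.13 to -0.99]. *AOC3* had 120, 322, 147 and 130 reads in the same order, and it was the synthesis gene past 2-fold higher in the DV line, at 1.13 [0.83 to 1.45]. Neighbouring genes of the same cluster were therefore on opposite sides of Col-0.

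*AOC1* had 726 reads in Col-0, 572 in the DV line, 727 in *sadr1-26.6* and 1545 in *sadr1-30.4*. It was below Col-0 in the DV line (-0.63), level with it in *sadr1-26.6* (0.06 [-0.09 to 0.21]) and past 2-fold higher in *sadr1-30.4* (1.08 [0.95 to 1.21]). *AOC4* had 451, 338, 475 and 561 reads, a log2 ratio of -0.70 in the DV line. As a share of the scaled reads per kb of the 4 genes, *AOC3* made up 1.59% in Col-0, 6.46% in the DV line, 2.22% in *sadr1-26.6* and 1.33% in *sadr1-30.4*. *AOC2* made up 77.6%, 69.1%, 73.6% and 69.7%. The coding sequences of *AOC1* and *AOC2* are identical at 90.3% of aligned bases and those of *AOC1* and *AOC3* at 83.2%, with an identical run of up to 73 bases. The treatment of reads that match more than 1 copy is not given in the sources used here, so the split between these genes is uncertain.

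**Figure D2:**
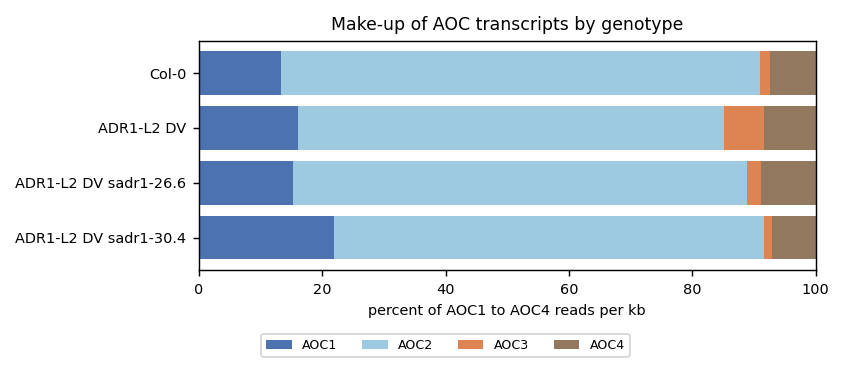
Share of each cyclase gene (x axis, percent of the scaled reads per kb summed over *AOC1* to *AOC4*) in each of the 4 genotypes (bars). The *AOC3* share is 6.46% in the DV line against 1.33% to 2.22% elsewhere, and the *AOC1* share is widest in *sadr1-30.4*.

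The later enzymes of synthesis stayed close to Col-0. *OPR3* (AT2G06050), the peroxisomal reductase, had 1109 reads in Col-0, 1129 in the DV line, 951 in *sadr1-26.6* and 1082 in *sadr1-30.4*, with log2 ratios from -0.26 to -0.04. *JAR1* (AT2G46370), which conjugates jasmonic acid to isoleucine, had 1815, 2306, 2023 and 1986 reads, with ratios from 0.06 to 0.21. The 10 synthesis genes together held 43497 scaled reads in Col-0, 29917 in the DV line, 52138 in *sadr1-26.6* and 65327 in *sadr1-30.4*, most of them from *LOX2*.

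Markers of leaf cell types did not all go the same way as the synthesis genes in the DV line. The 4 mesophyll markers (*RBCS1A*, *CAB2*, *CAB3* and *RCA*) summed to 946706 scaled reads in Col-0, 624352 in the DV line, 1013661 in *sadr1-26.6* and 1015295 in *sadr1-30.4*. All 4 were lower in the DV line, from -0.77 to -0.20, except that *CAB2* was at 0.01 under total-read scaling. The 4 vasculature markers (*SUC2*, *SEOR1*, *APL* and *IRX3*) were also lower, from -1.68 to -0.64, and their sum was 6901 in Col-0, 4040 in the DV line, 6508 in *sadr1-26.6* and 5971 in *sadr1-30.4*. Of the epidermis and trichome markers, *PDF1* had 16, 384, 5 and 9 reads in the same order. *GL2* had 36, 95, 67 and 34 reads, and both were past 2-fold higher in the DV line. *PDF1* had 16.7, 5.42 and 9.33 scaled reads in Col-0, *sadr1-26.6* and *sadr1-30.4*, and reached the floor only through the DV line. *ATML1* was at -0.14 there and *GL1* had no read in any genotype. These 4 summed to 1415 scaled reads in Col-0, 1644 in the DV line, 1813 in *sadr1-26.6* and 1469 in *sadr1-30.4*. The 3 guard cell markers summed to 647, 739, 780 and 662 in the same order. Of the guard cell markers *FAMA* was at 0.56 in the DV line, while *KAT1* was at -0.06 and *MYB60* at -0.05. The latter 2 were at 0.15 and 0.16 under total-read scaling. The epidermis and guard cell sums were thus higher in the DV line than in Col-0, but neither list moved as a whole there. Both sums were highest in *sadr1-26.6*, where the synthesis sum was above Col-0. The part of these markers in the jasmonate values was not tested, and in bulk leaves fewer cells of a type and less RNA per cell cannot be told apart.

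Among the repressors, *JAZ1* (AT1G19180) had the higher coverage of the 2 members past 2-fold in the DV line. It had 334 reads in Col-0, 969 in the DV line, 622 in *sadr1-26.6* and 367 in *sadr1-30.4*. Its log2 ratio to Col-0 was 1.24 [1.07 to 1.43] in the DV line, 0.95 [0.76 to 1.15] in *sadr1-26.6* and 0.13 [-0.09 to 0.35] in *sadr1-30.4*. The suppressors thus differed from each other at this gene, with *sadr1-26.6* between Col-0 and the DV line and *sadr1-30.4* within counting error of Col-0. *JAZ10* (AT5G13220), a repressor with splice forms that resist degradation, showed the same order at far lower coverage, with 10, 36, 23 and 14 reads. Its ratio was 1.47 [0.52 to 2.73] in the DV line and 1.18 [0.13 to 2.49] in *sadr1-26.6*. The table does not separate splice forms.

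*JAZ7* (AT2G34600) and *JAZ8* (AT1G30135), repressors that lack the usual degradation signal, were below the floor. *JAZ7* had 0 reads in Col-0, 27 in the DV line, 4 in *sadr1-26.6* and 2 in *sadr1-30.4*. Against a limit of 3 reads over the Col-0 genotype *JAZ7* was 7.36-fold higher in the DV line. The counting interval of its log2 ratio to Col-0 began at 2.48. *JAZ8* had 0, 7, 4 and 3 reads and was 1.91-fold higher in the DV line by the same limit, with an interval that began at 0.24 in log2. Each thus had reads in the 3 genotypes with the transgene and none in Col-0, but in the suppressors too few to differ from Col-0 beyond counting error. In *sadr1-26.6* against Col-0 the counting intervals of *JAZ7* and *JAZ8* both began at -0.54. In *sadr1-30.4* against Col-0 they began at -2.42 for *JAZ7* and -1.28 for *JAZ8*. A split between genotypes with and without the transgene was thus not shown for either gene.

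The other 6 *JAZ* genes lay within 2-fold of Col-0 in the DV line. *JAZ2* (AT1G74950) had 444 reads in Col-0, 720 in the DV line, 597 in *sadr1-26.6* and 457 in *sadr1-30.4*. *JAZ5* (AT1G17380) had 56, 88, 73 and 59 reads, *JAZ6* (AT1G72450) 689, 963, 686 and 723, and *JAZ12* (AT5G20900) 1245, 1941, 1445 and 1369, with ratios in the DV line from 0.19 to 0.36. *JAZ3* (AT3G17860) had 346, 305, 508 and 433 reads and was below Col-0 in the DV line (-0.47) but above it in *sadr1-26.6* (0.61). *JAZ9* (AT1G70700) had 2149, 2294, 3124 and 2789 reads, with ratios of -0.20, 0.59 and 0.37, the first of which was 0.02 under total-read scaling. Per kilobase in Col-0 the order of levels was *JAZ9* (1265 scaled reads per kb), *JAZ12* (1201), *JAZ6* (402), *JAZ2* (337), *JAZ1* (224), *JAZ3* (151), *JAZ5* (28.2) and *JAZ10* (5.50). *JAZ1* and *JAZ10*, past 2-fold in the DV line, were thus not among the 4 most abundant. Without replicates it is not known which neighbours in this order differ beyond the spread between plants.

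The MYC transcription factors, which activate jasmonate-responsive genes, were each placed differently. *MYC2* (AT1G32640) had 1673 reads in Col-0, 2375 in the DV line, 3120 in *sadr1-26.6* and 1938 in *sadr1-30.4*. It was highest in *sadr1-26.6*, at 0.95 [0.87 to 1.04] against Col-0, beside 0.21 in the DV line and 0.20 in *sadr1-30.4*. *MYC3* (AT5G46760) had 1172, 1837, 1213 and 1146 reads and a ratio of 0.36 in the DV line. *MYC4* (AT4G17880) had 1271, 775, 1417 and 1204 reads and was lower in the DV line, at -1.003 [-1.13 to -0.87], a value at the threshold that fell short with a pseudocount of 5. The receptor gene *COI1* (AT2G39940) had 959, 1170, 930 and 890 reads, and *NINJA* (AT4G28910), the adaptor that links JAZ proteins to co-repressors, had 915, 1087, 948 and 1041. Their ratios to Col-0 ran from -0.12 to 0.18 in the 3 mutant genotypes.

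**Figure D3:**
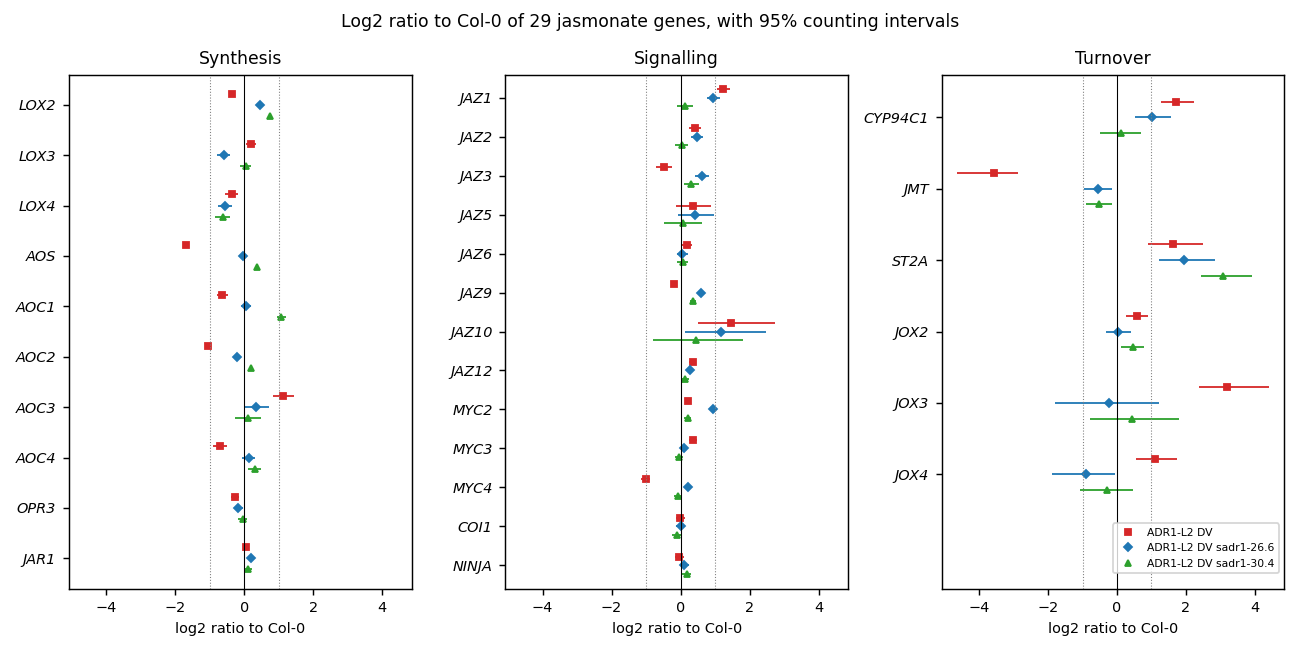
Log2 ratio to Col-0 (x axis) of the 29 genes above the floor, by step, with 1 symbol per mutant genotype and lines for the 95% counting interval. Dotted lines mark 2-fold. *AOS* and *JMT* lie far to the left in the DV line, *JOX3* far to the right, and *ST2A* lies to the right in the 3 mutant genotypes.

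Turnover genes gave the widest ratios among the genes above the floor. *CYP94C1* (AT2G27690), a P450 that carries JA-Ile oxidation on to the carboxy form, had 48 reads in Col-0, 196 in the DV line, 94 in *sadr1-26.6* and 52 in *sadr1-30.4*. Its log2 ratio was 1.72 [1.28 to 2.23] in the DV line, 1.01 [0.51 to 1.56] in *sadr1-26.6* and 0.11 [-0.49 to 0.70] in *sadr1-30.4*, the same order of genotypes as for *JAZ1*. *CYP94B3* (AT3G48520), which hydroxylates JA-Ile, was below the floor, with 4, 42, 6 and 8 reads and a ratio of 2.83 [1.64 to 5.04] in the DV line. *CYP94B1* (AT5G63450) had 1 read in *sadr1-26.6* and none in the other genotypes.

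The jasmonate hydroxylase genes *JOX3* (AT3G55970) and *JOX4* (AT2G38240) were high in the DV line and in neither suppressor. *JOX3* had 10 reads in Col-0, 121 in the DV line, 8 in *sadr1-26.6* and 14 in *sadr1-30.4*, which is 9.12-fold higher in the DV line on the scale of scaled reads plus 1, or 3.19 [2.38 to 4.40] in log2. *JOX4* had 34, 91, 17 and 28 reads, a ratio of 1.11 [0.55 to 1.74] in the DV line and of -0.91 [-1.88 to -0.07] in *sadr1-26.6*. *JOX2* (AT5G05600) had 133, 242, 131 and 184 reads, a ratio of 0.57 in the DV line. *JOX1* (AT3G11180) had no read in any genotype. The family therefore ranged from silent at this depth to the highest ratio of the 29 genes above the floor. That highest ratio is of *JOX3*, which reached the floor only through the DV line.

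*ST2A* (AT5G07010), a sulfotransferase for hydroxyjasmonate, was highest in *sadr1-30.4*. It had 18 reads in Col-0, 70 in the DV line, 69 in *sadr1-26.6* and 159 in *sadr1-30.4*. Its log2 ratio to Col-0 was 1.62 [0.91 to 2.51], 1.94 [1.23 to 2.83] and 3.07 [2.43 to 3.93] in that order. It was thus above Col-0 in all 3 mutant genotypes and highest in a suppressor, as *MYC2* also was. In the DV line and *sadr1-26.6* its 95% Poisson intervals overlapped (46.55 to 75.45 and 58.17 to 94.61 scaled reads). Its neighbour *ST2B* (AT5G07000) had 29, 17, 39 and 49 reads, and since their coding sequences are identical at 91.6% of aligned bases, the split of reads between them is uncertain.

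*JMT* (AT1G19640), the methyltransferase that makes methyl jasmonate, had the lowest ratio of the 34 genes in the DV line. It had 137 reads in Col-0, 13 in the DV line, 90 in *sadr1-26.6* and 96 in *sadr1-30.4*. The level in the DV line was 11.9-fold lower than Col-0, a log2 ratio of -3.57 [-4.63 to -2.87], and the suppressors lay at -0.55 and -0.52. Both suppressors were thus nearer to Col-0 than to the DV line while still below Col-0. The flower markers *AG*, *AP1*, *AP3* and *PI* summed to between 11.1 and 33.6 scaled reads. *AG* had 17, 1, 30 and 17 reads in the order of the genotypes above and was thus also lowest in the DV line, *PI* had 2, 12, 1 and 1, *AP3* had 3 in *sadr1-30.4* and 0 elsewhere, and *AP1* had none in any genotype. The part of these markers in the *JMT* values was not tested.

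**Figure D4:**
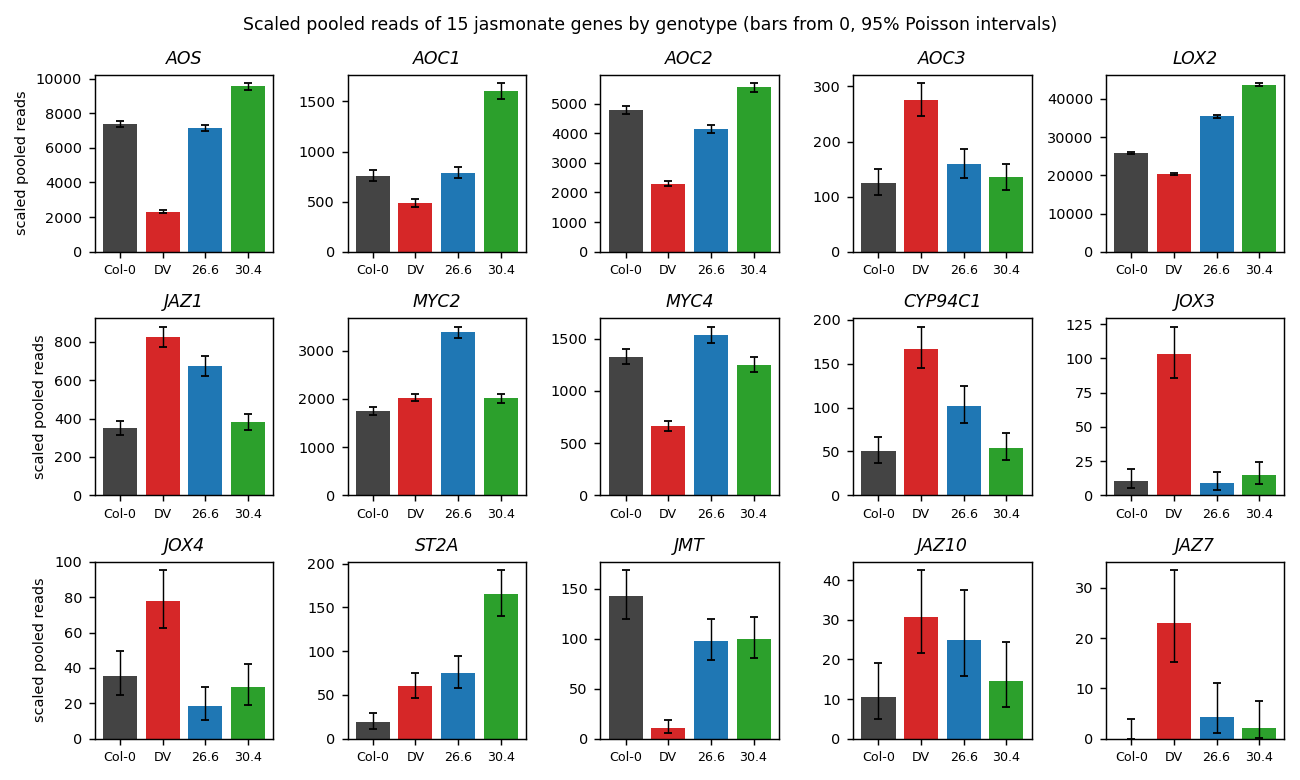
Scaled pooled reads (y axis, from 0, with a scale of its own per panel) of 15 genes in Col-0, the DV line (DV), *sadr1-26.6* (26.6) and *sadr1-30.4* (30.4). Error bars are 95% Poisson intervals for counting error only, and each bar is 1 pooled value. *JOX3* and *JAZ7* stand out in the DV line, *MYC2* in *sadr1-26.6*, and *AOC1* and *ST2A* in *sadr1-30.4*.

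In *sadr1-26.6* against Col-0, 3 of the 29 genes were past 2-fold higher (*JAZ10*, *CYP94C1* and *ST2A*) and 0 were lower, beside 1.36% and 1.64% of all genes. The 13 signalling genes had a median ratio of 0.43, with values from 0.01 to 1.18. All lay above 0, beside 8633 of the 17020 genes above the floor. The counting intervals of *COI1*, *JAZ6*, *MYC3*, *NINJA* and *JAZ5* included 0, and *COI1* was at -0.03 under total-read scaling. Synthesis and turnover medians were 0.01 and -0.10. With a pseudocount of 5, *ST2A* alone was past 2-fold, as *JAZ10* (0.96) and *CYP94C1* (0.96) fell short. Under total-read scaling *CYP94C1* (0.97) fell short, and with the floor of 100 none was counted.

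In *sadr1-30.4* against Col-0, 2 genes were past 2-fold higher (*AOC1* and *ST2A*) and 0 were lower, beside 0.834% and 1.64% of all genes. The medians were 0.17 for synthesis, 0.13 for signalling and 0.27 for turnover. The 13 signalling genes spanned -0.12 to 0.44, so none of *JAZ1*, *JAZ10* or *MYC2* stood as far above Col-0 as in *sadr1-26.6*.

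Against the DV line itself, *sadr1-26.6* had 4 genes past 2-fold higher (*AOS*, *JAZ3*, *MYC4* and *JMT*) and 2 lower (*JOX3* and *JOX4*), beside 6.68% and 6.87% of all genes. *AOS* was at 1.63 and *JMT* at 3.03, while *JOX3* was at -3.43 and *JOX4* at -2.02. Under total-read scaling *JAZ3* (0.82) and *MYC4* (0.96) were no longer counted, while *LOX3* (-1.05) and *AOC3* (-1.04) were counted as lower. In *sadr1-30.4*, 7 genes were past 2-fold higher than in the DV line (*LOX2*, *AOS*, *AOC1*, *AOC2*, *AOC4*, *JMT* and *ST2A*) and 6 were lower (*AOC3*, *JAZ1*, *JAZ10*, *CYP94C1*, *JOX3* and *JOX4*), beside 8.37% and 8.9% of all genes. The higher genes included 5 of the 10 synthesis genes, and their ratios ran from 1.01 for *AOC4* to 3.06 for *JMT*. *LOX2* (0.88) and *AOC4* (0.78) fell short under total-read scaling, and *JAZ10* (-0.87) with a pseudocount of 5. These comparisons share the DV line with the first one.

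The 2 suppressors were also set against each other, a comparison added after the values were seen. In *sadr1-30.4* against *sadr1-26.6*, 2 genes were past 2-fold higher (*AOC1* at 1.02 [0.90 to 1.15] and *ST2A* at 1.13 [0.72 to 1.57]) and 0 were lower, beside 1.28% and 1.61% of all genes. *CYP94C1* (-0.91 [-1.44 to -0.41]), *JAZ1* (-0.82 [-1.01 to -0.64]) and *MYC2* (-0.75 [-0.83 to -0.67]) were lower in *sadr1-30.4* by less than 2-fold. The medians were 0.24 for synthesis, -0.29 for signalling and 0.53 for turnover. Of the 13 signalling genes, 11 were lower in *sadr1-30.4*, beside 9083 of the 17020 genes above the floor. Differences of this size between 2 single lines have no replicate check.

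Further genes of the pathway were taken from a list of 31, of which 25 were above the floor. In the DV line against Col-0, 1 of the 25 was past 2-fold higher and 3 were lower, beside 6.48% and 6.9% of all genes. *JAV1* (AT3G22160), a repressor of jasmonate defence, had 209 reads in Col-0, 719 in the DV line, 151 in *sadr1-26.6* and 102 in *sadr1-30.4* (1.49 in the DV line). *FAD8* (AT5G05580), a plastid desaturase that supplies linolenic acid, had 1280, 615, 763 and 1532 reads (-1.35), and *MYC5* (AT5G46830), a relative of *MYC2*, had 48, 3, 24 and 23 (-3.84). *ST2B*, given above, was at -1.01, and at -0.81 under total-read scaling. The median over these 25 genes was 0.18, and the enzymes of the peroxisomal steps were among the genes within 2-fold.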

How the data were processed

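mRNA of Arabidopsis leaves was sequenced by the submitters in 12 samples, grouped by their titles. The authors deposited 1 table of counts, with 1 whole-number count per gene and genotype. The columns are headed RPKM but were treated as pooled reads, since the values are whole, have different totals and rise with transcript length (medians in Col-0 of 84 for the shortest to 474 for the longest of 5 length classes). Whether each is a sum or a rounded mean of the 3 samples is unknown. The submitters' processing notes name TAIR10. No aligner, counter or strand setting is given in the sources used here. A further 6 columns, holding the authors' log2 fold changes and adjusted p-values, were not used.

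Counts were scaled by the median of ratios (Python 3.11.15, pandas 2.3.3, scipy 1.17.1), with pseudocount 1, a floor of 20 mean scaled reads and a threshold of 2-fold. Scaling by TMM (edgeR 4.0.16) and by total reads, pseudocounts of 0.5 and 5, no floor, a floor of 100 and a rule that the counting interval also lie wholly on 1 side of 0 were tried, and the calculations were tested on simulated data. Counting intervals assume that reads are independent, and total depth was 20013826 to 21277026 reads. All members are accounted for, those past 2-fold with every value, and further pathway genes are named if past 2-fold in the DV line (ADR1-L2 DV) against Col-0. Members and lists were chosen with earlier results of these data known. Transcript lengths, positions and sequences came from RefSeq TAIR10.1, matched by locus code, and 84 of 91 listed symbols were found there.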

Additional observations from a re-analysis of the deposited data

How the results depend on the processing

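Every value here rests on 1 pooled number per genotype, so no replicate could be left out. No paired analysis was possible because the table has no value per sample. No gene past 2-fold changed sides of 0 under another setting, while genes with a ratio near 0, *JAZ9* in the DV line and *COI1* in *sadr1-26.6* among them, changed sign under total-read scaling. TMM scaling, a pseudocount of 0.5 and a rule that also asked for a counting interval wholly on 1 side of 0 gave the counts reported, with turnover medians of 1.36 to 1.38. That rule does not ask for an interval beyond 2-fold, and for 6 of the 11 genes past 2-fold in the DV line the interval reached inside it. Under total-read scaling, the DV line had 2 lower genes against Col-0 and medians of -0.14 (synthesis) and 0.43 (signalling), and *sadr1-26.6* against the DV line had 2 higher and 4 lower. With a pseudocount of 5, *sadr1-26.6* against Col-0 had 1 higher gene. With no floor, the signalling median in the DV line was 0.35, *sadr1-26.6* and *sadr1-30.4* had 6 and 4 genes higher than Col-0, *sadr1-26.6* had 4 lower than the DV line, and *sadr1-30.4* had 1 lower than *sadr1-26.6*. *JAZ7* (4.59), *JAZ8* (2.80) and *CYP94B3* (2.83) were then also past 2-fold higher in the DV line than in Col-0. Against the DV line, *JAZ7* (-2.97) and *CYP94B3* (-1.99) were also lower in *sadr1-30.4*, and *CYP94B1* (1.06, from 1 read) was higher in *sadr1-26.6*. With a floor of 100, which removes genes of low coverage, the DV line had 2 higher genes, and the turnover median of 0.57 is that of *JOX2* alone, *sadr1-26.6* and *sadr1-30.4* had 0 and 1 higher than Col-0 and 0 and 2 lower than the DV line, and *sadr1-30.4* had 1 higher than *sadr1-26.6*. Of 174 ratios of single genes, 61 moved beyond their counting interval under total-read scaling. Genes under about 20 reads, such as *JAZ7*, *JAZ8* and *JOX3* in Col-0, are limited by depth.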

Other observations

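Genes commonly used as readouts of jasmonate signalling did not share 1 pattern. *VSP2* (AT5G24770), a vegetative storage protein gene, had 314 reads in Col-0, 234 in the DV line, 1318 in *sadr1-26.6* and 925 in *sadr1-30.4*, so both suppressors were above Col-0 and the DV line was not. *VSP1* (AT5G24780) had 13, 51, 146 and 127 reads in the same order and was above Col-0 in the 3 mutant genotypes. *CORI3* (AT4G23600), a gene induced by the jasmonate mimic coronatine, had 3878, 301, 3881 and 5820 reads and was low in the DV line, as *AOS* and *JMT* were. *PDF1.2A* (AT5G44420), a defensin gene that needs ethylene as well as jasmonate, had 22, 9, 4 and 11 reads, below the floor, and *THI2.1* (AT1G72260), a thionin gene, had none in any genotype. *ILL6* (AT1G44350), an amidohydrolase that cleaves JA-Ile, had 113, 217, 285 and 203 reads, a log2 ratio to Col-0 of 1.38 in *sadr1-26.6*, and was named after its values were seen. No test was made of these genes, because the values analysed here are 1 pooled number per genotype.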
